A study of Mus musculus with 12 samples.

Results

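RANK, CD40 and the lymphotoxin beta receptor are receptors of the TNF receptor superfamily that act through the noncanonical branch of NF-kappa B. The members were named genes, taken by symbol: the receptors Tnfrsf11a (RANK), Cd40 and Ltbr, the decoy receptor Tnfrsf11b, the kinase Map3k14 (NIK), the transcription factor genes Nfkb2 and Relb, and the adaptors Traf2, Traf3 and Traf6. They are 10 of the 31332 genes in the table, and all 10 were among the 17268 genes that passed the filter on low counts and were tested.

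In unstimulated cells an adaptor complex that holds TRAF2 and TRAF3 keeps NIK protein low by marking it for degradation. Receptor binding frees NIK, which drives the processing of the NFKB2 precursor into a shorter protein that acts in the nucleus with RELB. TRAF6 carries signals of RANK and CD40 to the canonical branch instead. In the thymus, RANK ligand and CD40 ligand from lymphoid cells act on medullary epithelium through these receptors and support mTEC that express Aire, the regulator of tissue antigen display.

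RNA was counted in sorted cortical (cTEC) and medullary (mTEC) thymic epithelial cells of C57BL6/J mice aged 2 months. Every group carried floxed alleles of both liver X receptors, LXRalpha and LXRbeta, which are nuclear receptors for oxysterols. The controls had no further allele, and the other groups also had FoxN1-Cre, a recombinase under a FoxN1 promoter, which is active in thymic epithelium of both kinds. Each group had 3 libraries, numbered 7 to 9 for control cTEC, 10 to 12 for Cre cTEC, 1 to 3 for control mTEC and 4 to 6 for Cre mTEC, and values are listed in that order of number. The labels do not say whether libraries came from separate mice or pools, so p-values measure the spread between these libraries, which may be technical. There was no group with Cre and unfloxed alleles, so an effect of the recombinase and one of receptor loss cannot be told apart.

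Total counts ran from 4804697 to 11159013 per library. Nr1h2, which encodes LXRbeta, was at 158 to 192 CPM in control cTEC and 102 to 124 in Cre cTEC, and at 109.7 to 132 CPM in control mTEC and 70.4 to 96.1 in Cre mTEC (log2 fold change -0.58 and -0.63, adjusted p = 0.00566 and 0.0158, edgeR). Nr1h3, which encodes LXRalpha, stayed between 5.84 and 10.7 CPM in all groups and did not pass (adjusted p = 0.869 in cTEC and 0.67 in mTEC). Reads from exons outside the floxed part still count toward a gene, and deletion itself was not measured. Foxn1, a transcription factor of thymic epithelium and the source of the Cre promoter, was at 271 to 354 CPM in control cTEC and 73.2 to 166 CPM in Cre cTEC (log2 fold change -1.53, adjusted p = 0.00851, edgeR). Foxn1 was also lower in Cre mTEC, where libraries held 156, 34.0 and 57.7 CPM against 291, 232 and 240.2 CPM (log2 fold change -1.63, adjusted p = 0.0216, edgeR). The labelled cell types carried their markers: 12 cTEC markers summed to between 10671 and 23266 CPM in cTEC and 2303 to 3291 CPM in mTEC, and 10 mature mTEC markers to 1955 to 2855 CPM in mTEC and 196 to 301 CPM in cTEC. In Cre cTEC, library 11 was less like the other libraries. It was the shallowest of all, and log CPM of libraries 10 and 11 had the weakest correlation among pairs of one group, 0.966. The correlation was 0.975 for libraries 11 and 12 and 0.986 for libraries 10 and 12. Member values in cTEC are therefore also given without library 10 or 11.

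The promoters of the member genes are shown for Nfkb2 and Traf3, because they were the members with an NF-kappa B consensus match among the 7 for which RefSeq promoter windows (GRCm38.p6) were at hand. These windows run from 250 bases before to 50 bases after a gene's start, and Cd40, Relb and Tnfrsf11b have none here. Capitals mark the matches, which were searched on both strands and may overlap.
Nfkb2, chr19:46304487-46304786, plus strand: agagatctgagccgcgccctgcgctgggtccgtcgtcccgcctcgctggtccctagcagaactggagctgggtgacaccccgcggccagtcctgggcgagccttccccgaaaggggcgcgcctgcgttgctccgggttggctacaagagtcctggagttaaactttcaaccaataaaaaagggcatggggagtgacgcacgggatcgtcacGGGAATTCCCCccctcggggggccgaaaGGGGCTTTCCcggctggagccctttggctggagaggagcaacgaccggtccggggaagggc
Nfkb2, chr19:46305445-46305744, plus strand: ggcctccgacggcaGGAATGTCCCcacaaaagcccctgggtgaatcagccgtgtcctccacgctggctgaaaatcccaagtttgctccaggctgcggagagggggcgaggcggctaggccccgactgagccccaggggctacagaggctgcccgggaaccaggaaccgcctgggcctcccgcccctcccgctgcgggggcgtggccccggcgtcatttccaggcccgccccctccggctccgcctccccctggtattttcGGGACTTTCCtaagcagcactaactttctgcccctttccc
Traf3, chr12:111166120-111166419, plus strand: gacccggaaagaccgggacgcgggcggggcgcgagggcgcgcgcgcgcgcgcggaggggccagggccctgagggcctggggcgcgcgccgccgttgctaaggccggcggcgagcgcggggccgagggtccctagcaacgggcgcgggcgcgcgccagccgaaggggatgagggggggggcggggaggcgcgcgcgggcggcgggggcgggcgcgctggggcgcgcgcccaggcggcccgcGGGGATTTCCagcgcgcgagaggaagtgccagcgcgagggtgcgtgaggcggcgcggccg
In the first Nfkb2 window, overlapping matches began 39 and 38 bases before the start and another began 11 bases before it. In the second, the matches began 236 bases before and 10 bases after that start, and a further Nfkb2 window overlapped it and held the later of these matches. In Traf3 the match began 10 bases before the start. The consensus was present in 1480 of 32851 windows of the same length, 4.51% of them. No match stood in the windows of Tnfrsf11a, Ltbr, Map3k14, Traf2 or Traf6. A direct repeat of the nuclear receptor site with a spacer of 4 bases, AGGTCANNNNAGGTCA, which is the usual LXR element, was found in 0 of the 7 members with a window and in 5 of all windows (0.0152%). A match is a description of the letters, and its absence says only that these letters are not in the window.

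In control animals the receptors and transcription factors of this pathway were higher in mTEC than in cTEC, with the exception of Ltbr. Levels below are TMM-scaled counts relative to library size (CPM), and fold changes are on the log2 scale. Tnfrsf11a was at 445, 389.6 and 392 CPM in control mTEC and at 18.2, 22.0 and 20.6 CPM in control cTEC. Every mTEC library lay far above every cTEC library. The log2 difference, mTEC minus cTEC, was 4.33 (SE 0.15, adjusted p = 3.5e-14, edgeR), a 20.2-fold higher level, and it ranked 16 by p among the 17268 genes tested.

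Cd40, the receptor for CD40 ligand on activated T cells, was at 130.2, 145 and 149 CPM in control mTEC and 12.3, 15.5 and 16.3 CPM in control cTEC (log2 difference 3.26, SE 0.19, adjusted p = 3.2e-11, edgeR). Tnfrsf11b, which encodes the soluble decoy osteoprotegerin that binds RANK ligand, was at 155, 153 and 178 CPM against 15.2, 22.4 and 15.0 CPM (log2 difference 3.21, SE 0.21, adjusted p = 1.6e-10, edgeR). The receptor and its decoy were thus both higher in mTEC. Ltbr, the lymphotoxin beta receptor, ran the other way, with 76.3, 73.8 and 71.6 CPM in mTEC and 116, 134 and 119.9 CPM in cTEC (log2 difference -0.74, SE 0.13, adjusted p = 6.0e-05, edgeR).

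Among the intracellular members, Nfkb2 and Relb differed most between the control cell types. Nfkb2 was at 453, 386 and 422 CPM in mTEC and 105, 107 and 91.1 CPM in cTEC (log2 difference 2.06, SE 0.13). Relb was at 307, 295 and 303 CPM in mTEC and 85.6, 92.0 and 88.8 CPM in cTEC (log2 difference 1.77, SE 0.13). For both the groups did not overlap. Map3k14, Traf6, Traf3 and Traf2 were higher in mTEC by 1.35, 0.95, 0.68 and 0.45 (SE 0.13, 0.13, 0.12 and 0.12). The call for Traf2 was lost with offsets for gene length and GC content (0.31, adjusted p = 0.0678).

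In all, 9 of the 10 members were higher in control mTEC and 1 was lower, where 29.3% of all tested genes were higher and 30% lower. The median log2 difference over the members was 1.56, against -0.05 over all genes tested. Of the canonical NF-kappa B genes, 10 of 20 were higher in control mTEC and 3 lower, and Nfkb1, the canonical relative of Nfkb2, was lower (log2 difference -1.99, SE 0.13, adjusted p = 9.0e-11, edgeR).

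**Figure D1:**
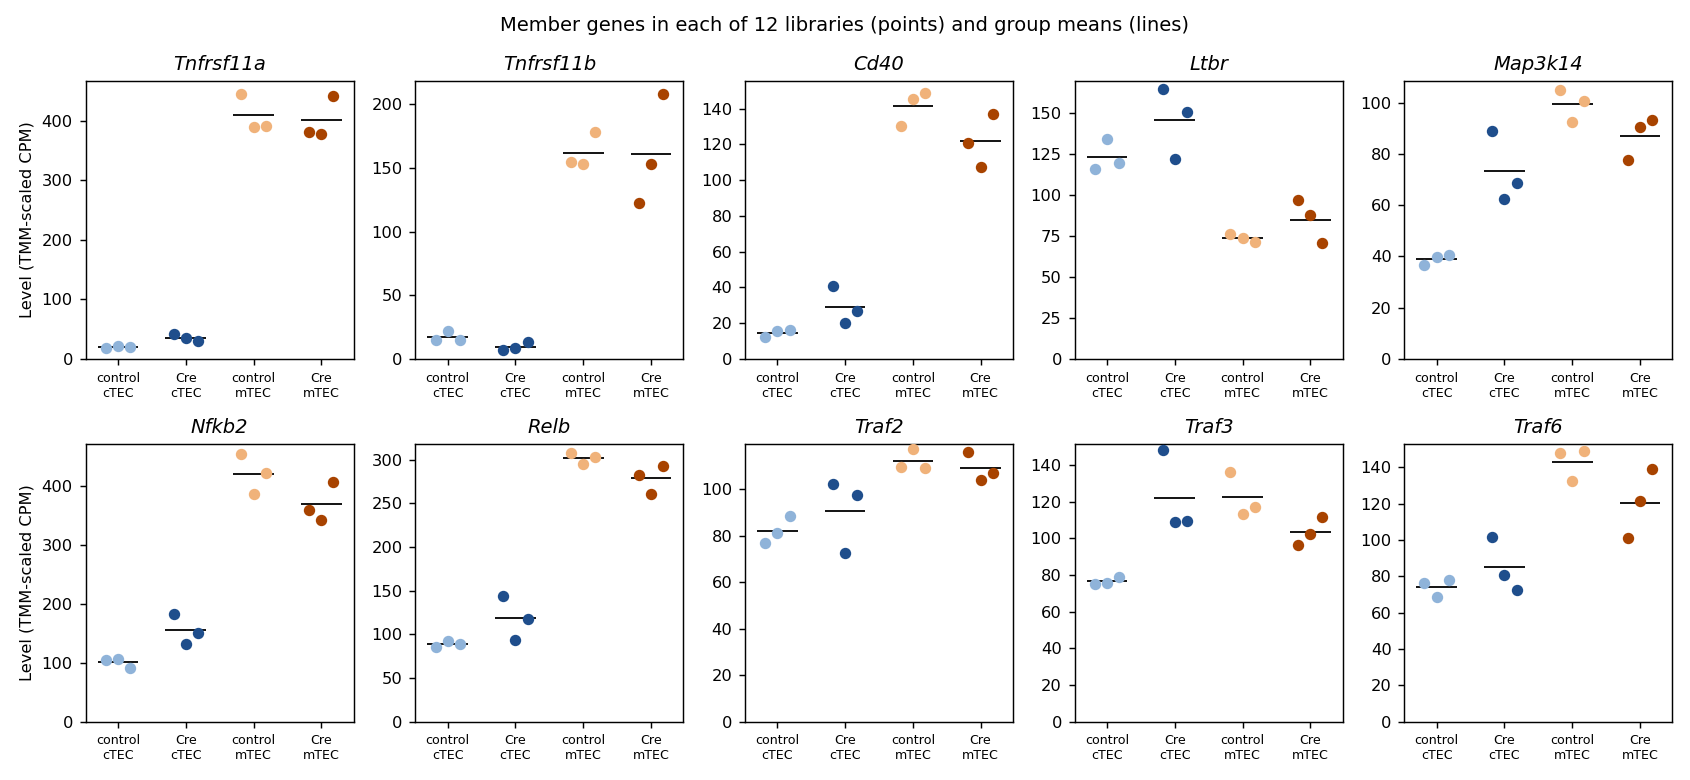
Level of each member gene (TMM-scaled CPM, linear axis from 0) in each of the 12 libraries, as points, with group means as lines, for control and Cre cTEC and mTEC. Tnfrsf11a lay between 378 and 445 CPM in the 6 mTEC libraries and between 18.2 and 42.4 CPM in the 6 cTEC libraries, and Ltbr was higher in cTEC.

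Between genes, levels were compared per kilobase of the longest annotated transcript (GRCm38). In control cTEC, Ltbr was the most abundant member at 58.5 ± 4.53 CPM per kb (SD, n = 3) and its range lay above those of all others. Relb and Nfkb2 followed at 27.1 ± 0.979 and 26.2 ± 2.20 CPM per kb and overlapped each other. Traf2 came next at 19.97 ± 1.40 CPM per kb, above Traf6, Traf3 and Map3k14. Tnfrsf11b, Cd40 and Tnfrsf11a were the lowest members in control cTEC, at 6.22 ± 1.49, 4.91 ± 0.708 and 4.03 ± 0.389 CPM per kb, and each overlapped its neighbour in the order. In Cre cTEC the order began with Ltbr again, at 69.3 ± 10.4 CPM per kb, and ended with Tnfrsf11b, at 3.35 ± 1.17 CPM per kb, with Tnfrsf11a just above it at 7.13 ± 1.26 and no overlap between them.

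In control mTEC the order was different: Nfkb2 stood first at 109.3 ± 8.67 CPM per kb, followed by Relb at 92.2 ± 1.88 and Tnfrsf11a at 81.3 ± 6.29 CPM per kb, with no overlap between these neighbours. Tnfrsf11b, Cd40 and Ltbr came next at 57.5 ± 5.05, 47.3 ± 3.29 and 35.1 ± 1.10 CPM per kb. Traf3 was the lowest member there, at 17.3 ± 1.72 CPM per kb. In Cre mTEC the order of the 10 members by mean was the same as in control mTEC, but several neighbours overlapped. Nfkb2 overlapped Relb, Relb overlapped Tnfrsf11a, Tnfrsf11b overlapped Cd40, Cd40 overlapped Ltbr, and Map3k14 overlapped Traf6. Cd40 and Ltbr were at 40.8 ± 4.94 and 40.4 ± 6.30 CPM per kb there.

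The Cre and control libraries were then compared within each cell type. In cTEC, RANK, CD40, NIK, Nfkb2, Relb and Traf3 were higher in Cre libraries, the decoy Tnfrsf11b was lower, and Ltbr, Traf2 and Traf6 did not pass the test. So 6 of the 10 members were higher and 1 lower, where 5.62% of all tested genes were higher and 3.38% lower. The median log2 fold change of the members was 0.52, against -0.02 over all genes tested. A higher level in a sorted bulk sample can come from more cells that express a gene or from more RNA per cell, which cannot be told apart here.

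Control cTEC libraries held Tnfrsf11a at 18.2, 22.0 and 20.6 CPM and Cre cTEC libraries at 42.4, 35.6 and 29.7 CPM, from 105 to 144 and 183 to 379 counts. All Cre libraries lay above all controls, and far below the mTEC libraries. The log2 fold change was 0.83 (SE 0.15, adjusted p = 0.000956, edgeR), 1.78-fold, and 0.68 without library 10 (adjusted p = 0.00697). For Cd40 the controls gave 12.3, 15.5 and 16.3 CPM and the Cre libraries 40.8, 20.2 and 26.8 CPM, again without overlap. Its log2 fold change was 1.02 (SE 0.20, adjusted p = 0.00234, edgeR), 2.03-fold, and fell to 0.68 without library 10 (adjusted p = 0.0175).

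Tnfrsf11b, the decoy for RANK ligand, moved in the opposite direction to its competitor RANK. The controls gave 15.2, 22.4 and 15.0 CPM and the Cre libraries 6.82, 8.36 and 13.2 CPM, from 88, 133 and 105 counts against 61, 43 and 90. The groups did not overlap, although the highest Cre library lay close to the controls. The log2 fold change was -0.90 (SE 0.25, adjusted p = 0.0284, edgeR). This call did not hold with voom (-0.57, adjusted p = 0.172), the robust fit, length and GC offsets, or when library 8, 10 or 11 was dropped (-0.67 without library 10, adjusted p = 0.167, and -0.85 without library 11, adjusted p = 0.0663). For Ltbr the values were 116, 134 and 119.9 CPM in controls against 165, 122 and 151 CPM, with overlap (log2 fold change 0.25, 95% interval -0.01 to 0.51, adjusted p = 0.284, edgeR), and passed only without library 11 among the alternatives run (0.35, adjusted p = 0.0475, against 0.15 without library 10).

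Map3k14, the kinase whose protein level sets noncanonical signalling, gave the smallest p of the members in this comparison. Its control libraries held 36.8, 39.7 and 40.7 CPM and its Cre libraries 88.7, 62.6 and 68.7 CPM. The groups were well separated. The log2 fold change was 0.91 (SE 0.13, adjusted p = 0.000139, edgeR), 1.89-fold, and ranked 131 of 17268 genes by p. Nfkb2 stood at 105, 107 and 91.1 CPM against 183, 132 and 150.2 CPM, and its lowest Cre library lay above its highest control. The log2 fold change was 0.63 (SE 0.13, adjusted p = 0.00333, edgeR).

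Relb, the partner of the Nfkb2 product, showed a smaller difference. Controls gave 85.6, 92.0 and 88.8 CPM and Cre libraries 144, 93.5 and 118 CPM, so that library 11 lay just above the controls. The log2 fold change was 0.42 (SE 0.13, adjusted p = 0.0457, edgeR). The call was lost with length and GC offsets, with only the 6 cTEC libraries, and when library 7, 8, 9, 10 or 12 was dropped. It was 0.25 without library 10 (adjusted p = 0.267) and 0.55 without library 11 (adjusted p = 0.0012).

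Of the adaptors, Traf3, whose protein holds NIK for degradation, stood at 75.2, 75.7 and 78.9 CPM in controls against 148, 109.0 and 109.4 CPM. The groups did not overlap, and the log2 fold change was 0.68 (SE 0.12, adjusted p = 0.00131, edgeR), 1.60-fold. Traf2, its partner in that complex, stood at 76.9, 81.4 and 88.4 CPM against 102, 72.5 and 97.5 CPM (log2 fold change 0.15, 95% interval -0.10 to 0.40, adjusted p = 0.597, edgeR). Traf6 was at 76.2, 68.4 and 77.9 CPM against 102, 80.8 and 72.2 CPM (log2 fold change 0.20, 95% interval -0.08 to 0.48, adjusted p = 0.491, edgeR). For Traf2 and Traf6 the groups overlapped. Traf2 was at 0.05 without library 10 and 0.27 without library 11, and Traf6 at 0.04 and 0.22, none past the threshold. So a gene whose protein promotes noncanonical signalling (Map3k14) and one whose protein restrains it (Traf3) were both higher in Cre cTEC.

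Within Cre cTEC, library 10 was the highest for 9 of the 10 members and the lowest for the other, Tnfrsf11b. Library 11 was the lowest for 7 members. Without library 10, 5 members were higher and 0 lower, and without library 11, 7 were higher and 0 lower. The fall to 5 was not particular to library 10. With library 7, 8, 9 or 12 left out, 5 members were higher each time, and 1, 0, 1 and 1 lower. Over all genes the fit of all libraries called 971 higher and 584 lower. There were 599 higher and 420 lower without library 10, and 1436 higher and 858 lower without library 11. With library 7, 8, 9 or 12 left out, 661, 783, 607 and 856 were higher and 361, 437, 411 and 447 lower. The higher calls thus moved the same way as in the members, while the lower calls without library 11 rose over all genes only. The 5 that stayed higher without library 10 were Tnfrsf11a, Cd40, Map3k14, Nfkb2 and Traf3 (log2 fold change 0.68, 0.68, 0.75, 0.49 and 0.51, against 0.83, 1.20, 1.00, 0.72 and 0.74 without library 11), and each of these passed in all 14 alternatives run for this comparison, with the highest adjusted p at 0.0332 for Nfkb2 and 0.0263 for Traf3.

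**Figure D2:**
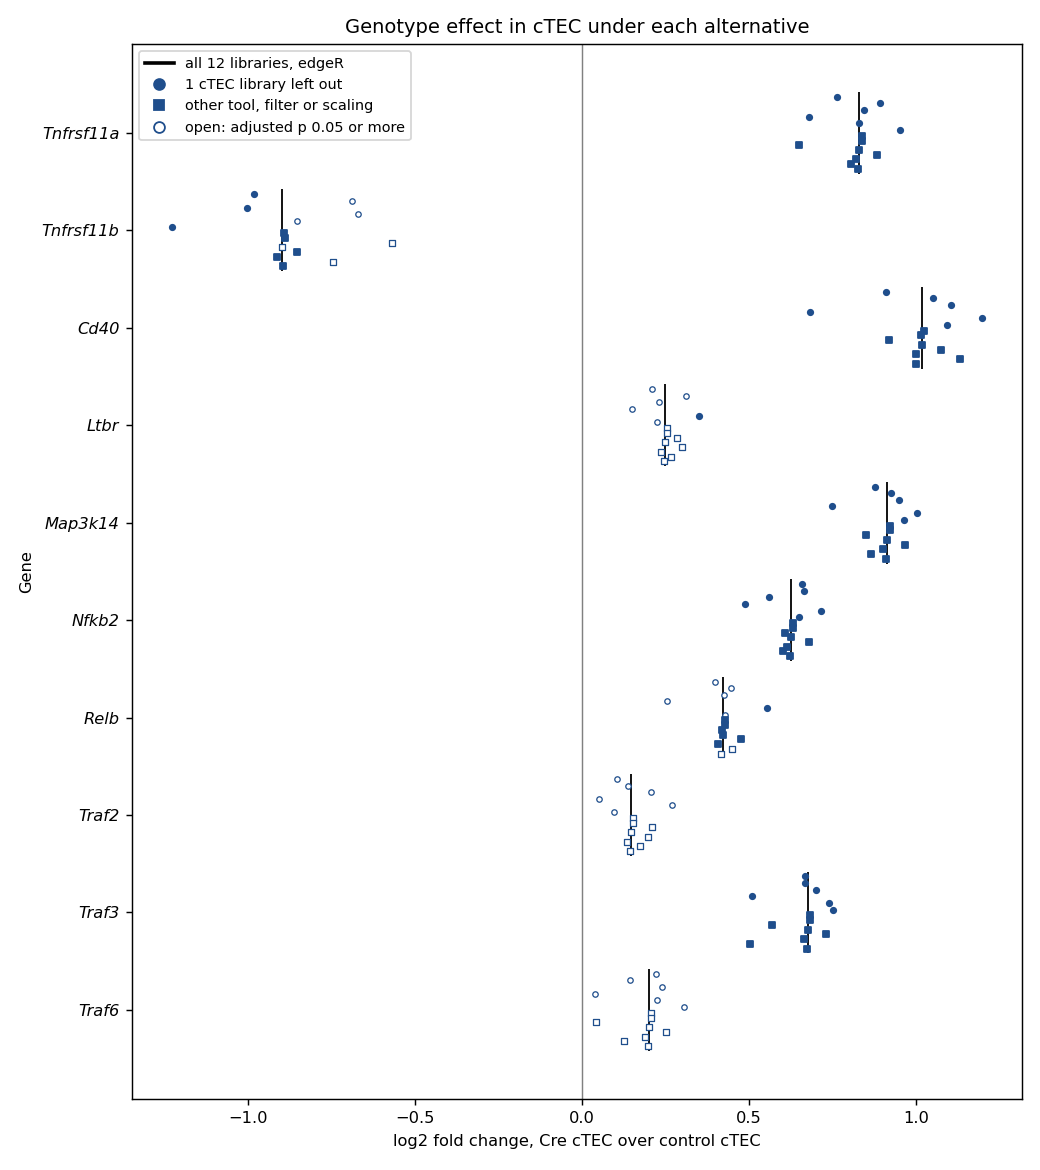
Log2 fold change of each member, Cre cTEC over control cTEC, in the fit of all 12 libraries (vertical bars) and under each alternative (circles with 1 cTEC library left out, squares with another tool, filter or scaling), with open symbols where the adjusted p was 0.05 or more. Relb fell to 0.25 and Tnfrsf11b to -0.57 with open symbols, while all symbols of Map3k14 are filled.

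Cell type markers also differed between control and Cre cTEC. Of 12 cTEC markers, 6 were higher and 1 (Foxn1) lower in Cre cTEC. They summed to 10671 to 12916 CPM in controls and to 23266, 11388 and 17726 CPM in libraries 10, 11 and 12, so library 10 was highest and library 11 lowest here too. Of the 12 mature mTEC markers, 3 were higher (Fgf21, Irf8 and Fezf2), 1 was lower (Hdc) and 8 did not pass. Their sum without Fgf21 and Tnfsf11 was 196 to 216 CPM in control cTEC and 227 to 301 CPM in Cre cTEC, with none of these 10 genes at 0. Irf8, an interferon regulatory factor, made up much of that sum, at 105 to 114 CPM in controls and 128 to 209.8 CPM in Cre cTEC. Without Irf8 the other 9 genes summed to 85.6 to 111 CPM in controls and 68.7 to 98.7 CPM in Cre cTEC, which overlap. Of the 12 mature mTEC markers, 5 had a log2 fold change above 0, and the list median was -0.70. Aire stood at 10.0, 9.92 and 10.8 CPM in controls against 2.91, 9.52 and 4.82 CPM (log2 fold change -0.95, adjusted p = 0.0848, edgeR). Of 7 tested immature mTEC markers, 4 were lower, and the summed level of the 8 on the list, one of them at 0, fell outside the control range (3110 to 3454 CPM in controls, 2110 to 2375 in Cre). The part of cell composition in the result for the members was not tested.

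B cells and dendritic cells also express Cd40 and Relb. In cTEC, 8 B cell markers summed to 20.4 to 25.4 CPM in control and 14.8 to 31.9 CPM in Cre libraries, with none at 0. The sums of 12 dendritic cell and macrophage markers were 55.8 to 70.7 CPM and 52.8 to 70.1 CPM, with 1 at 0 in library 12. Of those tested, 0 of 7 B cell markers and 1 of 11 dendritic cell and macrophage markers (Zbtb46, log2 fold change 0.60) passed. Cd40 itself was at 12.3 to 40.8 CPM in cTEC, a range that spans the B cell sums. The part of such cells in the Cd40 and Relb levels was not tested. In mTEC these sums were higher, at 198 to 280 CPM for B cell markers and 268 to 417 CPM for dendritic cell and macrophage markers over both genotypes. Thymocyte markers summed to 185 to 283 CPM in control cTEC and 199 to 242 CPM in Cre cTEC. Fibroblast and mural markers summed to 373 to 473 CPM and 280 to 541 CPM there.

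In mTEC, where the receptors are abundant, no member passed the test of genotype. The 0 of 10 stands beside 0.585% of all tested genes higher and 1.49% lower in Cre mTEC. No member had an unadjusted p under 0.05 in this comparison, and DESeq2 and voom also called 0. Tnfrsf11a was at 445, 389.6 and 392 CPM in control mTEC and 381, 378 and 442 CPM in Cre mTEC, with overlapping groups. Its log2 fold change was -0.03, with a 95% interval of -0.28 to 0.22. Cd40 was at 130.2, 145 and 149 CPM against 121, 107.5 and 137 CPM (log2 fold change -0.21, 95% interval -0.55 to 0.12). Tnfrsf11b had a wider spread in Cre mTEC, with 122, 153 and 208 CPM against 155, 153 and 178 CPM (log2 fold change -0.00, 95% interval -0.38 to 0.37).

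Traf3 was the member with the smallest p in mTEC, with 136, 113 and 117 CPM in controls against 96.3, 102.5 and 112 CPM (log2 fold change -0.24, 95% interval -0.49 to 0.01, adjusted p = 0.375, edgeR). Map3k14 and Nfkb2 both had a value of -0.19, with intervals of -0.45 to 0.06 and -0.45 to 0.07. Relb was at 295 to 307 CPM in control mTEC and 261 to 293 CPM in Cre mTEC. For Traf3 and Relb every Cre library lay below every control, and for the other members the groups overlapped. How many of all tested genes were separated in this way was not counted, so nothing is read from that separation. Relb, Traf2 and Traf6 had values of -0.11, -0.04 and -0.25, and Ltbr one of 0.20. So 9 of 10 members had a value below 0, and the median was -0.15, against 0.01 over all genes tested. A p that misses the threshold does not show that the levels were the same.

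**Figure D3:**
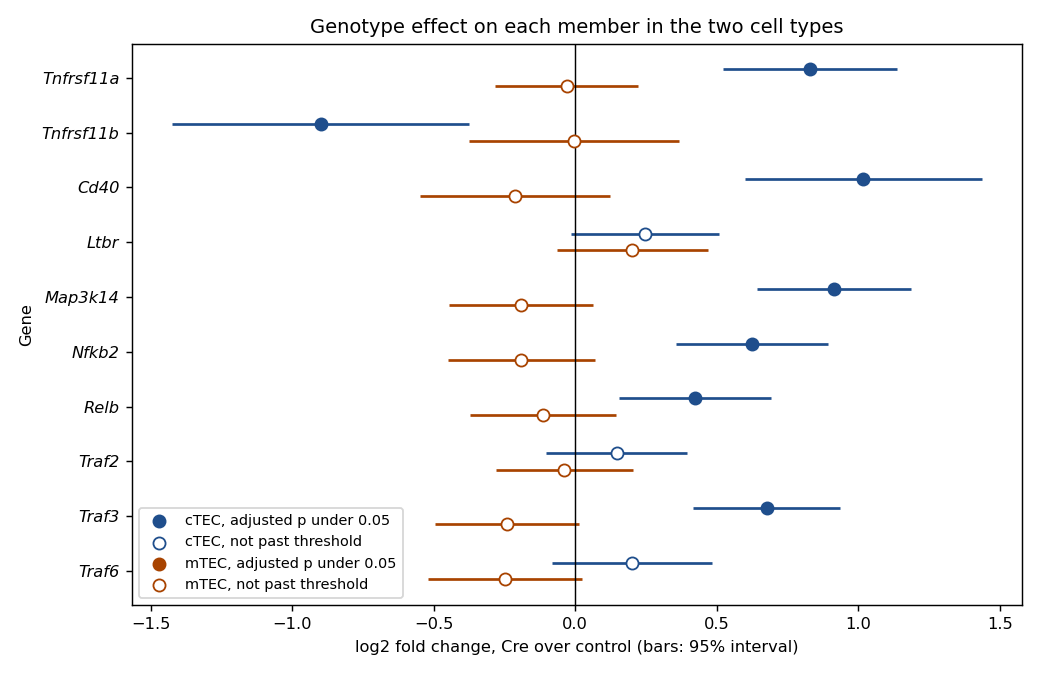
Log2 fold change of each member, Cre over control, with 95% intervals, in cTEC and mTEC, with filled points where the adjusted p was under 0.05 (edgeR). In cTEC 6 members are filled to the right of 0 and Tnfrsf11b to the left, and in mTEC none is filled.

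Averaged over both cell types, 2 members were higher in Cre libraries and 0 lower, where 3.6% of all tested genes were higher and 3.61% lower. These were Tnfrsf11a (log2 fold change 0.40, SE 0.09, adjusted p = 0.0132, edgeR) and Map3k14 (0.36, SE 0.09, adjusted p = 0.0162, edgeR). In mTEC alone their values were -0.03 and -0.19. The call for Map3k14 was lost without library 2 or 5. Cd40 and Tnfrsf11b did not pass (0.40 and -0.45, adjusted p = 0.0664 and 0.0879).

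Whether the genotype effect differed between the cell types was tested directly, as the cTEC effect minus the mTEC effect. It was larger in cTEC for 5 of 10 members and smaller for 0, where 2.92% of all tested genes had a positive and 1.08% a negative difference past the threshold. The difference was 1.23 for Cd40 (SE 0.26, adjusted p = 0.00944, edgeR) and 1.11 for Map3k14 (SE 0.18, adjusted p = 0.00204). It was 0.92 for Traf3 (SE 0.17, adjusted p = 0.00566), 0.86 for Tnfrsf11a (SE 0.19, adjusted p = 0.0133) and 0.82 for Nfkb2 (SE 0.18, adjusted p = 0.0126). Relb and Tnfrsf11b, which passed in cTEC, did not pass this test (0.54 and -0.89, adjusted p = 0.106 and 0.121). The call for Nfkb2 was lost without library 9 (0.75, adjusted p = 0.0524) and that for Traf3 with length and GC offsets (0.69, adjusted p = 0.0614).

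The same difference can be read as a smaller gap between mTEC and cTEC in Cre animals, from the same libraries. In Cre animals 6 members were higher in mTEC and 1 lower, where 25.1% of all tested genes were higher and 24.5% lower. Tnfrsf11a still stood 11.1-fold higher in Cre mTEC than in Cre cTEC, against 20.2-fold in controls. Cd40 stood 4.08-fold higher against 9.58-fold, and Nfkb2 2.37-fold against 4.17-fold. Tnfrsf11b was 17.2-fold higher against 9.26-fold in controls, a difference that did not pass the test above. Map3k14 no longer passed (log2 difference 0.24, adjusted p = 0.117, edgeR), nor did Traf3 (-0.24, adjusted p = 0.11). The mean of Traf3 in Cre cTEC, 122 ± 22.4 CPM, was near that in control mTEC, 122 ± 12.1 CPM (SD, n = 3 each). Traf2 did not pass in Cre animals either (0.26, adjusted p = 0.0741, edgeR). Its difference of effects did not pass (0.18, adjusted p = 0.655, edgeR), so a smaller gap is not shown for Traf2. Map3k14, Traf2 and Traf3 each passed under 2 to 4 of the 14 alternatives, in the direction of the value given. Ltbr was lower in mTEC here too (-0.78, SE 0.13).

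The remaining genes of the pathway were described from lists of ligands, other receptors, regulators, canonical genes and reported targets. Their counts in cTEC are read beside the shares over all tested genes, 5.62% higher and 3.38% lower. Of the 5 ligands, 3 were tested, and none passed in either cell type. Tnfsf11, which encodes RANK ligand, was at 0.336 to 2.26 CPM in all 12 libraries, and Cd40lg, which encodes CD40 ligand, at 0 to 0.777 CPM. Lta and Ltb, which encode lymphotoxins, were higher in mTEC than in cTEC in both genotypes.

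Of 21 other tested TNF receptor genes, 3 (14.3%) were higher in Cre cTEC and 0 lower: Tnfrsf21, Ngfr and Tnfrsf14 (log2 fold change 0.59, 0.98 and 1.32, SE 0.11, 0.19 and 0.36, adjusted p = 0.00178, 0.00179 and 0.0237, edgeR). Ngfr, the low-affinity neurotrophin receptor, had 12.3, 17.7 and 11.7 CPM in controls against 21.3, 25.6 and 35.4 CPM. Tnfrsf14 was low, at 1.35 ± 0.207 against 3.39 ± 0.887 CPM (SD, n = 3), and its call was lost without library 7, 8, 9 or 12 and with only the cTEC libraries. Of 16 other noncanonical regulators, 1 (6.25%, about the share over all genes) was higher in Cre cTEC and 0 lower: Birc3, which encodes a ubiquitin ligase of the TRAF2 and TRAF3 complex, went from 77.7 ± 5.07 to 108 ± 22.4 CPM, higher by 0.49 on the log2 scale (SE 0.14, adjusted p = 0.0337, edgeR). That call was lost without library 7, 8, 9, 10 or 12.

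Of 20 canonical NF-kappa B genes, 5 (25%) were higher in Cre cTEC and 0 lower, with a list median of 0.17. Tnfaip3, which encodes the ubiquitin-editing enzyme A20, had 78.0, 71.6 and 82.2 CPM in controls against 143, 111 and 126 CPM, higher by 0.72 on the log2 scale (SE 0.11, adjusted p = 0.000373, edgeR). Nfkbie, Nfkbiz and Nfkbia encode inhibitor proteins of the I kappa B family, and their values were 0.54, 0.70 and 0.45 (SE 0.13, 0.20 and 0.14). Tab3, which encodes an adaptor of the kinase TAK, had a value of 0.68 (SE 0.18). Nfkbia was named after its value was seen. Of these 5, Tnfaip3 kept its call in all 14 alternatives, and the others each lost it under 1 to 6, library 10 left out among them. Nfkb1, Rela and Rel did not pass in cTEC. Of 14 tested reported targets, 1 (7.14%) was lower in Cre cTEC, Icosl, which encodes the ICOS ligand (-0.71, SE 0.19, adjusted p = 0.0193, lost without library 7 or 10), and 0 were higher.

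In Cre mTEC the genes on these lists that passed were all lower: 3 of 21 other TNF receptor genes, 1 of 16 regulators, 1 of 20 canonical genes and 2 of 14 targets, where 1.49% of all tested genes were lower. They were Rel, a canonical subunit (log2 fold change -0.90, SE 0.17, adjusted p = 0.00993, edgeR), the receptors Tnfrsf8, Tnfrsf9 and Tnfrsf19 (-0.83, -0.74 and -0.81), the adaptor Traf1 (-0.53), the chemokine Ccl22 (-0.69) and the adhesion molecule Madcam1 (-0.76). The calls for Tnfrsf9, Tnfrsf19, Traf1 and Madcam1 were lost without any one of libraries 1, 2, 3, 4 or 5, that for Tnfrsf8 without library 1, 3 or 5, that for Ccl22 without library 1 or 5, and that for Rel without library 1. Mature mTEC markers summed to 2609 to 2855 CPM in control mTEC and 1955, 1968 and 2606 CPM in Cre mTEC, with library 6 the highest. The part of that difference in these values was not tested.

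**Figure D4:**
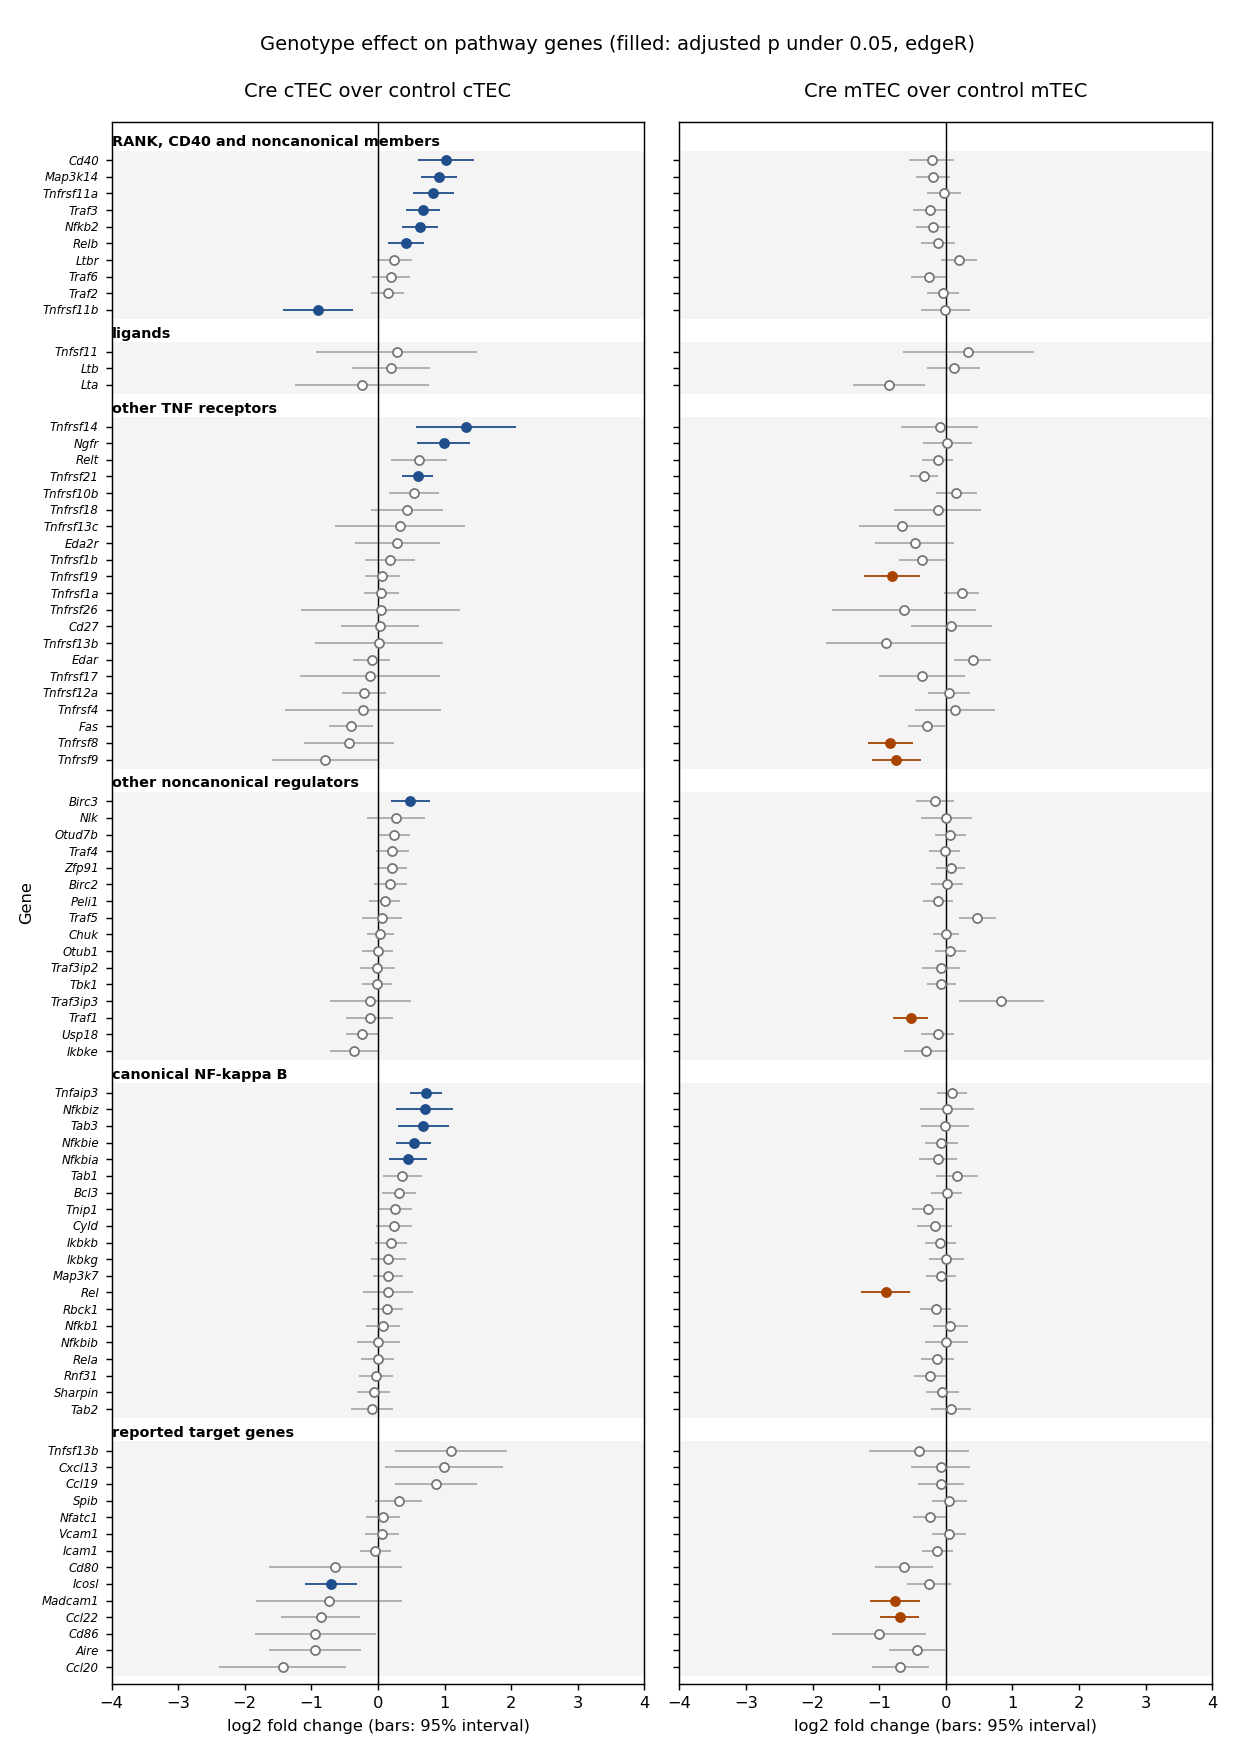
Log2 fold change, Cre over control, with 95% intervals, of each tested gene of the members and of 5 further lists, in cTEC (left) and mTEC (right), with filled points where the adjusted p was under 0.05 (edgeR). In cTEC 6 members, 3 other receptors, Birc3 and 5 canonical genes are filled to the right of 0, and in mTEC the filled points all lie to the left.

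The genes most like Tnfrsf11a across the 12 libraries, after each cell type's mean was subtracted, were Baz2a, Pcnx, Ccdc88c, Kif13b and Dync1h1, among 11171 genes with at least 5 CPM on average in both cell types. Pearson's r of log2 CPM was between 0.967 and 0.976. Their longest transcripts had 7542 to 14342 bases, against 5027 for Tnfrsf11a. With offsets for length and GC content the log2 fold change of Tnfrsf11a in cTEC was 0.81 (adjusted p = 0.00285), against 0.83 without. The genes most like Cd40 were Ache, Zfp598, Frmd4a, Mfsd12 and B3galt5 (r between 0.960 and 0.980), with 3352 to 6761 bases against 2986 for Cd40. With the same offsets the value of Cd40 was 1.13 (adjusted p = 0.0016). Ache, the nearest to Cd40, stood at 59.5 to 100.1 CPM in control cTEC and 108 to 268 CPM in Cre cTEC. These libraries share their groups, so the coefficients mostly follow the difference between Cre and control cTEC and are a description only.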

How the data were processed

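Thymic epithelial cells were sorted and their RNA was amplified with the SMARTer low-input kit, which does not mark strand, per the labels' protocols. The authors deposited raw read counts per gene. The submitters' processing notes name mm9 as build and list edgeR, HTSeq and STAR, without versions. The annotation and counting settings behind the deposited table are not known here, and the annotation at hand (GRCm38) served for transcript length, GC content and promoter windows only. Reads of a gene and of an overlapping antisense partner cannot be told apart.

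Counts were tested with edgeR 4.0.16 (R 4.3.3): TMM scaling, filterByExpr by group, and the quasi-likelihood test, two-sided, in 1 fit of 12 libraries and 4 groups with Benjamini-Hochberg adjustment over 17268 genes and a threshold of 0.05, for 6 comparisons. The test was run on simulated data first. Chi-square per degree of freedom between libraries of a group was 3.28 to 12.9, so none was a copy of another. Alternatives were DESeq2 size factors, DESeq2 1.42.0, no filter, limma 3.58.1 (voom with quality weights), a robust fit, a filter of 5 CPM in 3 libraries, length and GC offsets (98.01% of genes had values), the 6 libraries compared alone, and each library left out. The genes named beyond the 10 members were, by rule, up to 4 of each list by p in a comparison and the 5 nearest to Tnfrsf11a and Cd40. In cTEC, Aire, Nfkbia, Nfkb1, Rela and Rel were named outside that rule, with their values seen, as was Cd40lg, which was not tested. Members and lists were chosen with earlier results of these data known.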

Additional observations from a re-analysis of the deposited data

Results flagged for a closer look

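The genotype effect in cTEC differed from that in mTEC for 5 members by a test of the difference itself (edgeR). The difference, cTEC effect minus mTEC effect on the log2 scale, was 1.23 for Cd40, 1.11 for Map3k14, 0.92 for Traf3, 0.86 for Tnfrsf11a and 0.82 for Nfkb2. In each of these, every Cre cTEC library lay above every control cTEC library. The 5 were picked by a test on these same libraries, so this separation is no further support. The share of all tested genes with such a separation was not counted. In mTEC their values were -0.21, -0.19, -0.24, -0.03 and -0.19, none past the threshold.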

How the results depend on the processing

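The 60 member results (10 genes in 6 comparisons) were recomputed in 940 alternatives, of which 884 kept direction and side of the threshold, 18 lost a call, 28 gained one and 10 changed sign. The sign changes were all of uncalled values near 0. With a library left out, the genotype value in mTEC ran from -0.11 to 0.033 for Tnfrsf11a and from -0.24 to 0.12 for Tnfrsf11b, which was 0.0089 with the 6 mTEC libraries alone. The averaged value of Traf6 ran from -0.11 to 0.028, and the difference of effects for Ltbr from -0.062 to 0.20. The cause was not tested.

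The count of members lower in cTEC was 0 with voom, the robust fit and length and GC offsets, and 0 to 1 with a library left out. Averaged over cell types, members higher were 4 with voom and 1 to 4 with a library left out, and members lower were 1 with DESeq2 and with no filter, and 0 to 1 with a library left out. For the difference of effects, members lower were 1 with no filter and 0 to 1 with a library left out. In Cre animals, members lower in mTEC than cTEC were 2 with length and GC offsets and 1 to 2 with a library left out.

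Over all genes, 1555 were called for genotype in cTEC and 1018 to 2294 with a library left out. In mTEC 358 were called, against 594 with DESeq2, 1672 with voom, 1049 with no filter, 1026 with the 6 libraries alone and 78 to 671 with a library left out. The averaged effect gave 1245, against 2065 with voom and 805 to 1815 with a library left out. The difference of effects gave 692, against 1121 with DESeq2, 1398 with voom, 1140 with no filter, 385 with offsets and 371 to 1644 with a library left out. Among 41 results of list genes, 512 of 598 alternatives kept the call and 86 lost it. No paired analysis was possible because the labels do not say which cTEC and mTEC libraries, if any, came from the same animals. Any such pairing was ignored in the comparisons that span both cell types. Cd40, Tnfrsf11a and Tnfrsf11b had the lowest counts in cTEC, with 43 to 133 for Tnfrsf11b.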
